A study of Mus musculus with 48 samples.

Results

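Heat shock proteins are the chaperones that bind unfolded or newly made proteins, and the 10 genes described here encode major cytosolic and mitochondrial ones, several of them strongly stress-inducible. They were chosen by symbol and not by any measured value, and they are 10 of the 34932 genes with at least 1 transcript in the deposited quantifications. Hspa1a and Hspa1b encode the stress-inducible HSP70, Hspa8 the HSP70 that every cell makes, Hsph1 (HSP110) a nucleotide exchange factor for HSP70, and Dnajb1 and Dnaja1 the J-domain cochaperones that load clients onto it. Hsp90aa1 encodes the inducible cytosolic HSP90, Hspb1 the small heat shock protein HSP27, and Hspd1 and Hspe1 the mitochondrial chaperonin HSP60 and its lid HSP10.

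The 48 libraries came from C57BL/6J mice of 6 to 10 weeks bearing subcutaneous B16F10 melanomas (a mouse melanoma cell line) on the right flank. WT littermates were compared with Yap-cKO mice (Yap-loxP/loxP; LSL-EYFP; CD4-Cre), in which Cre runs from the Cd4 promoter, so that the deletion and the EYFP reporter are directed to T cells. Live CD45+ CD4- CD8- leukocytes and the CD4+ and the CD8+ T cells were isolated by sorting from tumors (tumor-infiltrating lymphocytes, TILs, for the T cells) and from the tumor-draining inguinal lymph node (TDLN) into TRIzol LS, with 4 libraries in each of the 12 groups of cell type, tissue and genotype. Tumors were digested with collagenase type I and DNase I for 30 minutes at 37 °C. The labels state mechanical and enzymatic dissociation for nodes as well, without conditions in the sources used here, so tissue and isolation cannot be told apart anywhere below.

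In an unstressed cell, heat shock factor 1 (HSF1) is held inactive by chaperones. When unfolded proteins draw those chaperones away, HSF1 trimerises, enters the nucleus and binds heat shock elements, which are inverted repeats of the unit nGAAn in the promoters of HSP70, HSP40, HSP90, small heat shock protein and chaperonin genes. Activated lymphocytes also raise chaperones as protein synthesis increases, and enzymatic tissue dissociation is known to induce HSP70 together with immediate early genes such as Fos and Jun.

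The promoters of 4 members are shown because they carry the element that the response works through and because the 2 inducible HSP70 genes can hardly be told apart. Each sequence is taken from RefSeq on GRCm38.p6, is read 5′ to 3′ on the gene's strand, ends at the base before the annotated start (for Hspe1 the stretch between its own start and that of Hspd1), and has inverted repeats GAANNTTC or TTCNNGAA in capitals.
Hspa1a, chr17:34972157-34972406, minus strand: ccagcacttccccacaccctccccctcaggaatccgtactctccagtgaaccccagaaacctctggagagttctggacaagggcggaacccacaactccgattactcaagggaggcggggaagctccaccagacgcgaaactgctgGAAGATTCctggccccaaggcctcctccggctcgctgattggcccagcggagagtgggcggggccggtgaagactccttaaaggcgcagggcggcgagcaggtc
Hspa1b, chr17:34959239-34959488, minus strand: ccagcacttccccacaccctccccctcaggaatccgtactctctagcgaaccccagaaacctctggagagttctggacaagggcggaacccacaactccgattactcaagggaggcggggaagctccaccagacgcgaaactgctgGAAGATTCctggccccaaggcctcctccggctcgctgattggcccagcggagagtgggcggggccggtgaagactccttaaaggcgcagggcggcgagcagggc
Hspb1, chr5:135887669-135887918, plus strand: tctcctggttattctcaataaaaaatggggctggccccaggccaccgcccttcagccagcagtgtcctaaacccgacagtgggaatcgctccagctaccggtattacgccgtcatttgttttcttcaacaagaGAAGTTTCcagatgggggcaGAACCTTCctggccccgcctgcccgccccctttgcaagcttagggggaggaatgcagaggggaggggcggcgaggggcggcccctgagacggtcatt
Hspe1, chr1:55087933-55088147, plus strand: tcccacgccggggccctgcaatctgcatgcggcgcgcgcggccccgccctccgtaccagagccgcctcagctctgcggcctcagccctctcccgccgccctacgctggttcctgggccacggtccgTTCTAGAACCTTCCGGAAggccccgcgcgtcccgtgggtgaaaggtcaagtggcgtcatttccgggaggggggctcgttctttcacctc

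The Hspa1a and Hspa1b promoters differed at 3 of 250 positions and held the same element at the same place. Hspb1 held 2 separate elements, and Hspe1 shared with Hspd1, which is read from the other strand, a stretch in which 3 elements overlap. Of the 8 members with a window in the table (250 bases before to 50 after the start), 7 held at least 1 such repeat on either strand, Dnajb1 being the exception, against 17.0% of the 27025 genes with windows. A run of at least 3 alternating units was found in Hspe1, Hspd1 and Hsph1 and in 0.662% of all genes with windows. These are matches of letters and not measured binding.

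The transcripts of the HSP70 pair also share sequence. Of the stretches of 31 bases in the Hspa1a transcript, 63.8% also occur in Hspa1b, so Salmon had to divide shared reads between them. Hspa1a took 22.9% to 51.9% of the pair's counts in the 48 libraries (median 39.6%). Values for each of the 2 genes are therefore uncertain, and those of Hspa1a and Hspa1b should be read as 1 measurement. They lie close together on chromosome 17 (34969190 to 34972156 and 34956436 to 34959238, minus strand, GRCm38). The other members are Hspa8 (chromosome 9, 40800984 to 40810087), Hsph1 (chromosome 5, 149614287 to 149636376), Hsp90aa1 (chromosome 12, 110690605 to 110702728), Dnajb1 (chromosome 8, 83608193 to 83612653), Dnaja1 (chromosome 4, 40722150 to 40737149), Hspb1 (chromosome 5, 135887919 to 135889563), Hspe1 (chromosome 1, 55088132 to 55091307) and Hspd1 (chromosome 1, 55077835 to 55088243).

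The libraries held 12656510 to 24213892 counts, so that 3 counts correspond to 0.124 to 0.237 CPM (counts scaled to the library total). The sorted cells carried their markers: Cd4 was at 104 to 1062 CPM in CD4+ T cells, Cd8a at 218 to 1288 CPM in CD8+ T cells, and Cd3e at 1.36 to 13.2 CPM in CD45+ CD4- CD8- cells. Those CD45+ cells were not the same mixture in both tissues, with 12 macrophage genes summing to 21487 to 37520 CPM in tumors and 178 to 4108 CPM in nodes, and 10 B cell genes to 919 to 3474 CPM in tumors and 13600 to 17028 CPM in nodes. Tumor T cell libraries also held melanoma RNA, more of it in WT than in Yap-cKO mice. The 12 melanoma genes summed to 5867 to 18275 CPM in WT and 180 to 2437 CPM in Yap-cKO CD4+ TILs, to 4017 to 14393 and 46.8 to 2636 CPM in CD8+ TILs, and to no more than 28.2 CPM in any node library. Yap1 itself was at 14.8 to 27.3 CPM in CD4+ TILs of WT mice and 1.63 to 5.58 CPM in those of Yap-cKO mice, and its ranges in CD8+ TILs did not overlap either, but its ranges in node T cells overlapped between genotypes (1.26 to 2.59 and 1.13 to 4.53 CPM). In CD45+ CD4- CD8- tumor cells Yap1 was at 2.74 to 5.32 CPM in WT and 1.52 to 2.03 CPM in Yap-cKO mice, also without overlap. The part of melanoma RNA in Yap1 was not tested. Y-linked transcripts (4 genes summed) were at 43.3 to 423 CPM in WT libraries 1 to 3 and at 2.51 to 19.0 CPM in WT libraries 4 and all Yap-cKO libraries, so that this marker moved with genotype. Differences between genotypes below can therefore not be fully told apart from differences in mouse sex, which such transcripts follow.

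All 10 genes had counts in every library, Hspb1 with as few as 3, and together they took 0.265% to 1.8% of the counts. Per transcript length (TPM), Hspa8 was the most abundant member with 557 to 6715 TPM over the 48 libraries and Hspb1 the least with 0.296 to 93.9 TPM. Hsp90aa1 (median 433 TPM) and Hspe1 (median 321 TPM) came next, and Hsph1 (median 51.1 TPM) was among the lowest. The spread within a gene was wide: from the lowest to the highest library CPM spanned 46.5-fold for Hspa1a, 34.3-fold for Dnajb1 and 315-fold for Hspb1, but 9.43-fold for Hspe1. When the 12 groups of a gene were ordered by their mean CPM, neighbours in that order were separated in no more than 1 of 11 pairs for any member. Only the 2 highest groups of Hspa1a (CD45+ tumor cells of Yap-cKO, then of WT mice) and 1 pair of Dnajb1 did not overlap their neighbour, while for the other 8 genes every neighbouring pair overlapped.

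**Figure D1:**
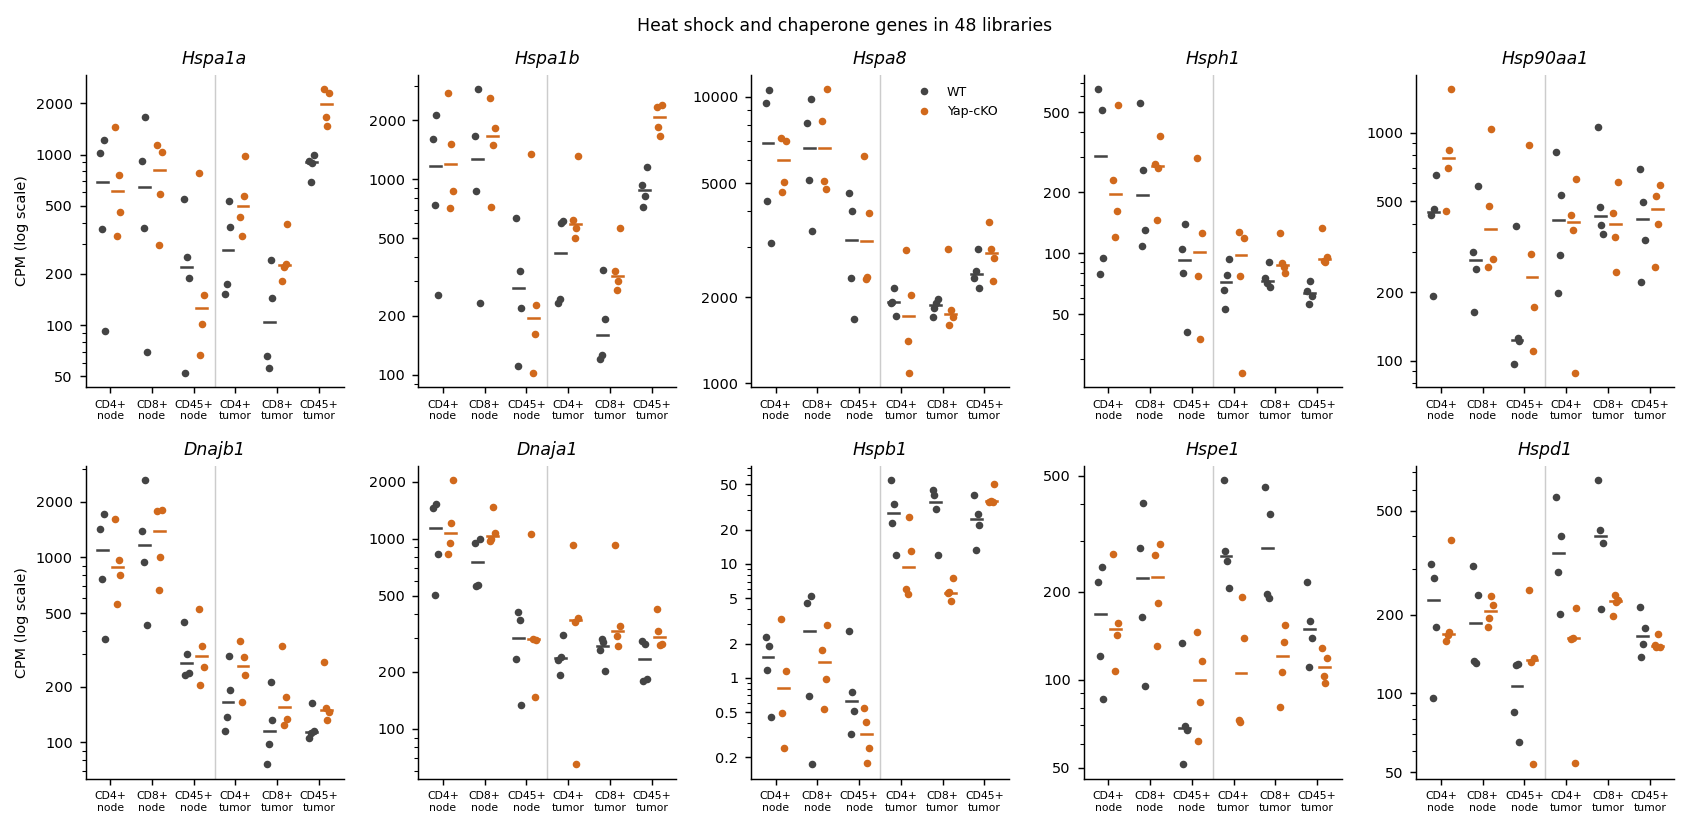
CPM (log scale) of each of the 10 genes in all 48 libraries, by sorted population and tissue (CD45+ stands for CD45+ CD4- CD8- cells), with WT in grey and Yap-cKO in orange. Each point is 1 library and each bar the median of 4. Hspa1a was highest in CD45+ tumor cells, Dnajb1 and Hspa8 in node T cells, and Hspb1 in all tumor groups.

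The first comparison asked how the chaperone genes differ between tumor and draining node in the same sorted population. In T cells most of the cytosolic HSP70 system was lower in tumors, in CD45+ cells inducible HSP70 was higher in tumors, and Hspb1 was higher in tumors in all 3 populations. A gene was called when its edgeR quasi-likelihood test gave an adjusted p below 0.05 (Benjamini-Hochberg over all genes tested) and a log2 fold change beyond 1 in either direction. In WT CD4+ T cells 1 member rose and 4 fell in tumors, where 37.3% of all tested genes were called (22.9% higher, 14.4% lower). In WT CD8+ T cells 2 rose and 6 fell (background 37.7%: 22.5% higher, 15.2% lower), and in WT CD45+ cells 3 rose and 1 fell (background 39.9%: 21.9% higher, 18% lower).

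In Yap-cKO mice the counts were 1 higher and 2 lower in CD4+ T cells (background 18.5%: 12.4% higher, 6.07% lower), 1 higher and 6 lower in CD8+ T cells (background 15.9%: 10.9% higher, 5% lower), and 3 higher and none lower in CD45+ cells (background 40.3%: 21.8% higher, 18.5% lower). In CD45+ cells the number of members called was therefore near the share of all genes in WT and below it in Yap-cKO mice. Hspa1a and Hspa1b, both among those rises, are 1 measurement. The median log2 fold change of the 10 members was -1.29 in WT CD4+ and -1.64 in WT CD8+ T cells, where that of all genes was -0.03 and -0.02. In CD45+ cells it was 0.81 in WT and 0.08 in Yap-cKO mice, beside -0.08 and -0.09 for all genes.

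**Figure D2:**
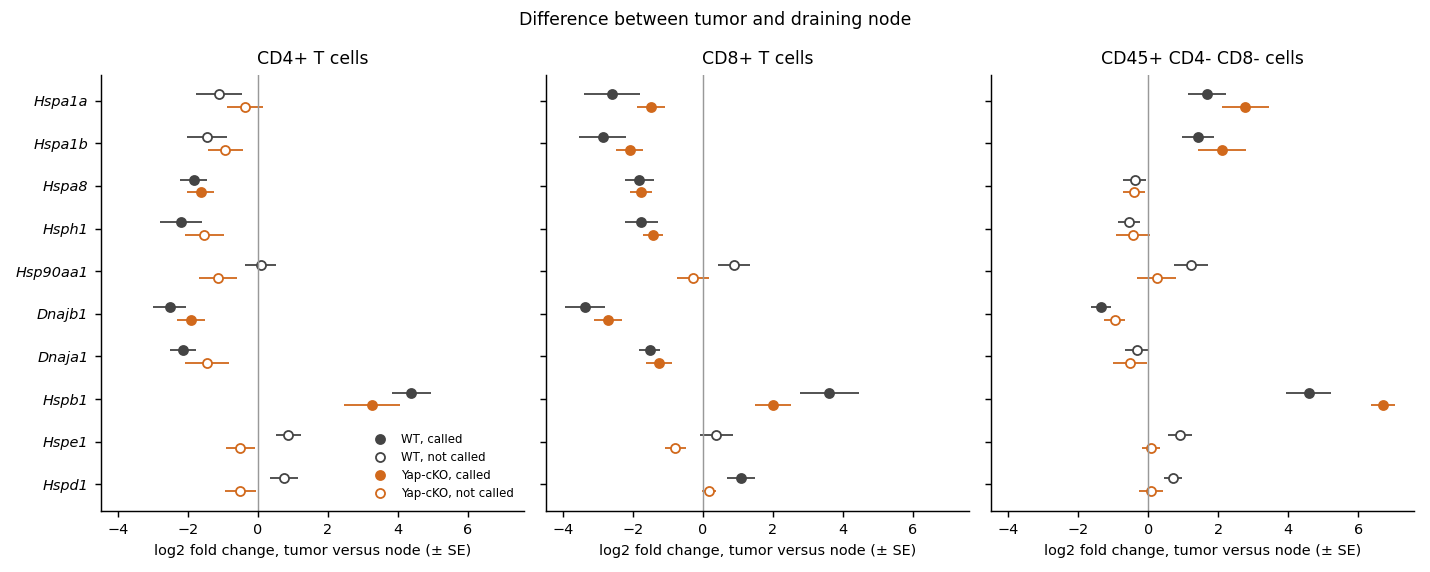
Log2 fold change between tumor and node (± SE, n = 4 against 4) of the 10 genes in the 3 sorted populations (panels), WT in grey and Yap-cKO in orange. Filled points were called and open points were not. Hspa1a and Hspa1b lie left of 0 in T cells, without a call in CD4+ T cells, and right of 0 in CD45+ cells. Hspb1 lies right of 0 in all 6 comparisons.

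Inducible HSP70 was called higher in tumors in CD45+ cells and lower in tumors in CD8+ T cells, while in CD4+ T cells it was not called. Hspa1a in WT CD45+ cells was at 914, 695, 892 and 989 CPM in tumors (libraries 1 to 4) and at 551, 52.4, 252 and 189 CPM in nodes. In Yap-cKO CD45+ cells it was at 2435, 1664, 1471 and 2304 CPM in tumors and 785, 66.7, 101 and 150 CPM in nodes. Every tumor library lay above every node library in both genotypes. The log2 fold change was 1.68 ± 0.551 (SE, adjusted p = 0.0262, n = 4 against 4) in WT and 2.78 ± 0.681 (adjusted p = 0.00496) in Yap-cKO mice, and Hspb1 apart these were the largest rises among the members. Hspa1b, its near copy, rose by 1.43 and 2.11. In WT mice the call of Hspa1a was lost without node library 3 or 4 or tumor library 3 (log2 fold changes 1.63, 1.54 and 1.7), and that of Hspa1b without node library 3 or 4 or tumor library 4. In Yap-cKO mice that of Hspa1b was lost without node library 3 or 4.

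In CD8+ T cells Hspa1a was at 65.7, 56.2, 240 and 144 CPM in WT tumors and at 923, 369, 1663 and 69.6 CPM in WT nodes. The groups overlapped only through node library 4, which was lower than 2 of the tumor libraries. Hspa1a fell by 2.59 (SE 0.799, adjusted p = 0.0208) and Hspa1b by 2.86 (SE 0.672, adjusted p = 0.00508) on the log2 scale. In Yap-cKO CD8+ T cells the falls were 1.49 and 2.10, with both genes called. Hspa1b was called whichever library was left out, while Hspa1a was called in 4 of 8 such fits in WT and 3 of 8 in Yap-cKO mice (-3.04 to -1.80 and -1.84 to -1.26). The WT call was lost without node library 3 or tumor library 1, 2 or 4, and the Yap-cKO call without node library 1 or 4 or tumor library 1, 2 or 3. In CD4+ T cells neither gene was called: the log2 fold change of Hspa1a was -1.11 in WT (adjusted p = 0.177) and -0.37 in Yap-cKO mice (adjusted p = 0.646). There the WT node libraries of Hspa1a spread from 92.6 to 1224 CPM, a wider range than that of the tumor libraries, 153 to 534 CPM.

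The difference between the populations was itself tested, as an interaction of tissue and population, after these values had been seen. Against WT CD4+ T cells, 3 members were called (background 17.2%): the tumor versus node difference of CD45+ cells was higher by 2.82 ± 0.948 for Hspa1a (adjusted p = 0.0478), 2.93 ± 0.804 for Hspa1b and 1.82 ± 0.51 for Dnaja1. Against WT CD8+ T cells 3 were also called (background 15.3%), namely Hspa1a (4.25 ± 1.07, adjusted p = 0.0118), Hspa1b (4.27 ± 0.869) and Dnajb1 (2.01 ± 0.614). In Yap-cKO mice 3 were called against CD4+ T cells (background 17.5%) and 5 against CD8+ T cells (background 18%, the others being Hspa8 at 1.47 and Dnajb1 at 1.87). Hspa1a and Hspa1b were among the called genes each time, with differences of 3.17 and 3.09 against CD4+ and 4.4 and 4.34 against CD8+ T cells, as was Hspb1 in Yap-cKO mice (3.43 and 4.84). Without Yap-cKO CD4+ node library 1 none of the 3 calls against Yap-cKO CD4+ T cells remained, and the call of Hspa1a against WT CD4+ T cells was lost in 12 of 16 fits that left out 1 library (2.37 to 2.93), those without CD45+ node library 1, CD4+ node library 2 or 4 or CD4+ TIL library 3 keeping it. Dnajb1 against WT CD8+ T cells was lost in 10 of 16 such fits and Hspa8 against Yap-cKO CD8+ T cells in 11 of 16. The B cell and macrophage content of the CD45+ cells changed between tissues together with inducible HSP70, and their part in the result was not tested. In any of these bulk samples, fewer cells of a type and less RNA per cell cannot be told apart.

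The J-domain cochaperones were also lower in tumor T cells. Dnajb1, the partner of inducible HSP70, was at 76.2, 98.4, 212 and 133 CPM in WT CD8+ TILs and at 1384, 947, 2617 and 433 CPM in WT CD8+ node cells. In WT CD4+ T cells it was at 115, 137, 293 and 193 CPM in tumors and 1422, 767, 1707 and 363 CPM in nodes. No tumor library reached a node library in either population. It fell by 3.37 (SE 0.564, adjusted p = 0.000611) in WT CD8+, by 2.52 (SE 0.471, adjusted p = 0.000993) in WT CD4+, by 2.72 in Yap-cKO CD8+ and by 1.91 in Yap-cKO CD4+ T cells.

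Dnajb1 also fell in WT CD45+ cells, by 1.34 (SE 0.285, adjusted p = 0.00299), where inducible HSP70 rose. There it was at 106, 112, 164 and 115 CPM in tumors and 450, 232, 301 and 237 CPM in nodes, with no overlap. In Yap-cKO CD45+ cells its log2 fold change was -0.96 (adjusted p = 0.0218), short of the fold threshold. Dnaja1, which works with constitutive HSP70, fell by 2.14 (SE 0.364, adjusted p = 5e-04) in WT CD4+, 1.52 in WT CD8+ and 1.26 in Yap-cKO CD8+ T cells, the last being lost without any 1 library other than tumor library 1. In CD45+ cells its log2 fold changes were -0.33 and -0.51 (adjusted p = 0.448 and 0.393).

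Constitutive HSP70 and its exchange factor were lower in tumor T cells as well. Hspa8 was at 1903, 1928, 2144 and 1712 CPM in WT CD4+ TILs and at 9502, 4346, 10533 and 3088 CPM in WT CD4+ node cells. The tumor libraries lay within a narrow range and the node libraries, all above it, spread over more than 3 times their lowest value. Hspa8 was called in all 4 T cell comparisons, with falls of 1.84 (SE 0.393, adjusted p = 0.00241), 1.82, 1.64 and 1.77 on the log2 scale for WT CD4+, WT CD8+, Yap-cKO CD4+ and Yap-cKO CD8+ T cells. The Yap-cKO CD4+ call was lost without tumor library 2. Hsph1 fell by 2.20, 1.76 and 1.43 in WT CD4+, WT CD8+ and Yap-cKO CD8+ T cells, while in Yap-cKO CD4+ T cells its log2 fold change of -1.53 did not pass the test (adjusted p = 0.0837). In WT CD4+ node cells Hsph1 was at 653, 78.5, 515 and 94.8 CPM, so that libraries 1 and 3 were far above libraries 2 and 4. In CD45+ cells the log2 fold changes of Hspa8 (-0.39 and -0.41) and Hsph1 (-0.55 and -0.44) did not pass the test.

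Hsp90aa1 was not called in any of the 6 comparisons. Its log2 fold change ranged from -1.14 ± 0.547 in Yap-cKO CD4+ T cells (adjusted p = 0.17) to 1.22 ± 0.484 in WT CD45+ cells (adjusted p = 0.0566). Single libraries stood apart in it, such as WT CD8+ TIL library 1 at 1055 CPM beside 471, 396 and 360 CPM. Hsp90ab1, the constitutive HSP90, is no member but belongs beside it. It fell by 1.05 (adjusted p = 0.0427), 1.26 and 1.31 in tumor T cells of WT CD4+, Yap-cKO CD4+ and Yap-cKO CD8+ origin, and in WT CD8+ T cells its log2 fold change was -0.96 (adjusted p = 0.0644).

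Hspb1 was the only member that rose in tumors in all 6 comparisons. It was at 54.6, 23.0, 33.4 and 12.1 CPM in WT CD4+ TILs and at 2.29, 1.17, 1.90 and 0.454 CPM in WT CD4+ node cells. In Yap-cKO CD45+ cells it was at 34.7, 35.8, 35.3 and 50.1 CPM in tumors and 0.549, 0.408, 0.178 and 0.241 CPM in nodes, which are 11, 8, 3 and 4 counts. Tumor and node libraries did not overlap in any of the 6 comparisons. The log2 fold changes in WT mice were 4.38 ± 0.553 (adjusted p = 5.44e-05) in CD4+, 3.61 ± 0.843 (adjusted p = 0.00491) in CD8+ and 4.59 ± 0.647 (adjusted p = 0.000289) in CD45+ cells. In Yap-cKO mice they were 3.26 ± 0.801, 1.99 ± 0.511 and 6.71 ± 0.346 (adjusted p = 9.56e-08 for the last). The Yap-cKO CD8+ call was lost without node library 2 or tumor library 2 or 4 (1.63, 2.03 and 1.85), and the Yap-cKO CD4+ call without node library 4 (3.18). In T cells melanoma RNA was higher in tumors as well, with 12 of 12 marker genes called in both WT T cell populations. In WT TILs Hspb1 and melanoma RNA were both highest in library 1 and otherwise differed in the order of libraries. In WT CD4+ TIL libraries 1 to 4 the melanoma genes summed to 18275, 13502, 5867 and 8289 CPM. In WT CD8+ TILs they summed to 14393, 11145, 4017 and 12255 CPM, with Hspb1 at 44.5, 40.2, 30.5 and 11.9 CPM. In Yap-cKO CD4+ TILs they summed to 180, 866, 2437 and 899 CPM, with Hspb1 at 6.07, 5.5, 26.0 and 12.9 CPM. Both were highest in library 3 there. In Yap-cKO CD8+ TILs they summed to 46.8, 545, 2636 and 1157 CPM, with Hspb1 at 5.54, 5.68, 4.73 and 7.49 CPM. In CD45+ tumor cells, another mixture of cells, Hspb1 was at 13.4 to 40.7 CPM in WT and 34.7 to 50.1 CPM in Yap-cKO mice. The melanoma genes summed there to 1122 to 1858 and 135 to 522 CPM. The part of melanoma RNA in Hspb1 was not tested in any of these populations.

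The mitochondrial chaperonin was called once. Hspd1 was at 654, 423, 211 and 375 CPM in WT CD8+ TILs and 308, 133, 131 and 238 CPM in the corresponding node cells, which overlap. It rose by 1.09 (SE 0.397, adjusted p = 0.0427) there, a call that was lost without node library 2 or 3 or tumor library 1, 2 or 4, and was not called in the other 5 comparisons. Hspe1 was not called in any. Its log2 fold change ranged from -0.79 in Yap-cKO CD8+ to 0.91 in WT CD45+ cells (adjusted p = 0.0845 and 0.042), the latter short of the fold threshold.

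Because WT TIL libraries held fewer T cell transcripts (15 T-lineage genes summed to 2206 to 8290 CPM in WT CD4+ TILs and 10110 to 17861 CPM in the node), the T cell comparisons were repeated with each library scaled on those genes. That scaling moved the median log2 fold change of all genes to 1.55 in WT CD4+ and 1.588 in WT CD8+ T cells, and to 0.228 and 0.393 in Yap-cKO mice. In WT CD4+ T cells the calls over all genes went from 3203 higher and 2024 lower to 7886 and 121, and in WT CD8+ T cells from 3121 and 2114 to 8086 and 111. Under it the falls of Hspa8, Hsph1, Dnajb1 and Dnaja1 in WT CD4+ T cells were no longer called (-0.21, -0.64, -1.10 and -0.59), and Hspa1a turned to 0.23. Dnajb1 in WT CD8+ T cells was still called at -1.83 (adjusted p = 0.00466), Hspa1b reached -1.33 (adjusted p = 0.0509), and Dnaja1 turned to 0.09. The scaling moves all genes of a library alike, so these values carry that common shift and the order of genes within a library stays as it was. With it Hspe1 (2.76 and 2.19), Hspd1 (2.58 and 2.84) and Hsp90aa1 (1.92 and 2.59) were called higher in WT CD4+ and CD8+ TILs.

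In Yap-cKO T cells, whose libraries held less melanoma RNA, no called member turned its direction, although Hspa1a in CD4+ T cells, which was not called, went from -0.37 to 0.02. There Dnajb1 (-1.58 and -2.28), Hspa8 (-1.32 and -1.32) and Hspb1 (3.55 and 2.48) were called in CD4+ and CD8+ T cells under T-lineage scaling, as were Hspa1b and Hsph1 in CD8+ T cells (-1.67 and -1.02), while the calls of Hspa1a and Dnaja1 in CD8+ T cells were lost.

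The study's own question was what the loss of Yap in T cells changes. In tumors, inducible HSP70 was higher in CD45+ cells of Yap-cKO mice, and Hspb1 and Hspe1 were lower in their CD8+ TILs. Of the 10 members, 2 rose in CD45+ cells (background 0.991%), which are Hspa1a and Hspa1b and so 1 measurement, 2 fell in CD8+ TILs (background 12.2%), and 0 were called in CD4+ TILs (background 8.02%). In CD4+ TILs 2 members had an unadjusted p under 0.05, and DESeq2 called 1 (Hspe1).

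In CD45+ tumor cells the 4 WT libraries of Hspa1a lay between 695 and 989 CPM and those of Yap-cKO mice between 1471 and 2435 CPM, without overlap. It rose by 1.14 ± 0.203 (adjusted p = 0.036) and Hspa1b by 1.16 ± 0.196 (adjusted p = 0.0323), which is about 2.2-fold. Hsph1 was also higher in each Yap-cKO library than in any WT library (90.4 to 134 CPM against 56.0 to 73.2 CPM) but did not pass the test (0.65 ± 0.168, adjusted p = 0.0919). Both HSP70 calls rested on the full set of libraries: they were lost without any 1 of the 4 WT libraries or of Yap-cKO libraries 1, 2 and 4, with log2 fold changes of 1.04 to 1.27 for Hspa1a. With the Y-linked level as a covariate the log2 fold changes of Hspa1a and Hspa1b were 0.96 and 0.85 (adjusted p = 0.512 and 0.487), and the calls over all genes went from 135 to 1, so that the loss is not particular to HSP70.

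Other RNA moved between genotypes in the same CD45+ tumor libraries. The melanoma genes summed to 1122 to 1858 CPM in WT and 135 to 522 CPM in Yap-cKO mice, with 8 of 12 called lower. The 10 B cell genes summed to 1800 to 3474 CPM in WT and 919 to 1803 CPM in Yap-cKO mice, and all 10 had negative values, although none was called. The 12 macrophage genes overlapped (24251 to 37520 CPM in WT, 21487 to 31852 CPM in Yap-cKO mice). Of the 34 immediate early genes 31 had positive values and 0 were called (median 0.51, all genes 0.01). Their sum was at 16234 to 25086 CPM in WT and 21544 to 35470 CPM in Yap-cKO mice. Atf3, a stress-induced transcription factor on that list, lay at 472 to 705 CPM in WT and 767 to 1367 CPM in Yap-cKO mice without overlap (log2 fold change 0.83, adjusted p = 0.0727). The 25 chaperone and stress response genes of the endoplasmic reticulum summed to 8705 to 10145 CPM in WT and 10246 to 14093 CPM in Yap-cKO mice, and 0 were called. The part of these cells and genes in the HSP70 result was not tested.

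In T cells inducible HSP70 had a log2 fold change of like size that did not pass the test. Hspa1a was at 153, 174, 534 and 376 CPM in WT against 428, 332, 573 and 978 CPM in Yap-cKO CD4+ TILs, which overlap. The log2 fold changes of Hspa1a were 1.02 ± 0.491 (adjusted p = 0.228) in CD4+ and 1.06 ± 0.473 (adjusted p = 0.143) in CD8+ TILs. Under T-lineage scaling they were 0.09 and 0.25.

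Hspb1 in CD8+ TILs was at 44.5, 40.2, 30.5 and 11.9 CPM in WT against 5.54, 5.68, 4.73 and 7.49 CPM in Yap-cKO mice. It fell by 2.40 (SE 0.408, adjusted p = 0.018) without overlap, and in CD4+ TILs, where Yap-cKO library 3 reached 26.0 CPM, its log2 fold change was -1.13 (adjusted p = 0.253). Hspe1 was at 458, 197, 190 and 370 CPM in WT against 80.5, 106, 135 and 154 CPM in Yap-cKO CD8+ TILs. It fell by 1.32 (SE 0.354, adjusted p = 0.0383), and in CD4+ TILs, where the groups did not overlap either, its log2 fold change was -1.21 (adjusted p = 0.0991). Hspd1, its partner, had log2 fold changes of -0.87 and -1.18 in CD8+ and CD4+ TILs (adjusted p = 0.0851 and 0.131).

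The call of Hspe1 was lost without any 1 CD8+ TIL library other than WT library 3, and that of Hspb1 without Yap-cKO library 2 (adjusted p = 0.0545). Without WT CD8+ library 3, 5 members were called. With the Y-linked covariate the log2 fold changes of Hspb1 and Hspe1 were -1.21 and -1.57 (adjusted p = 0.124 for each), and the calls over all genes went from 1719 to 1. Both fell together with melanoma, endothelial and fibroblast RNA. In CD8+ TILs 6 of 12 melanoma, 9 of 10 endothelial and 6 of 8 tested fibroblast and pericyte genes were lower in Yap-cKO mice, and the fibroblast genes summed to 98.9 to 854 CPM in WT and 5.54 to 23.5 CPM in Yap-cKO mice. Macrophage RNA went the other way, its 12 genes summing to 301 to 725 CPM in WT and 779 to 2082 CPM in Yap-cKO mice, with 8 called higher. The part of these cells in the result was not tested. Under T-lineage scaling, which shifted the median of all genes to -1.09 in CD4+ and -1.083 in CD8+ TILs and left 17 genes higher and 3413 lower in CD4+ TILs (193 and 946 before) and 6 and 5568 in CD8+ TILs (428 and 1291 before), Hspb1, Hspe1 and Hspd1 were called lower in both populations, with values from -3.76 to -2.24. The values of Hspa8, Hsph1, Dnajb1 and Dnaja1 were then negative in both, as was that of Hspa1b in CD4+ TILs (-0.01), which the common shift of all genes gives any gene with a small positive value.

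**Figure D3:**
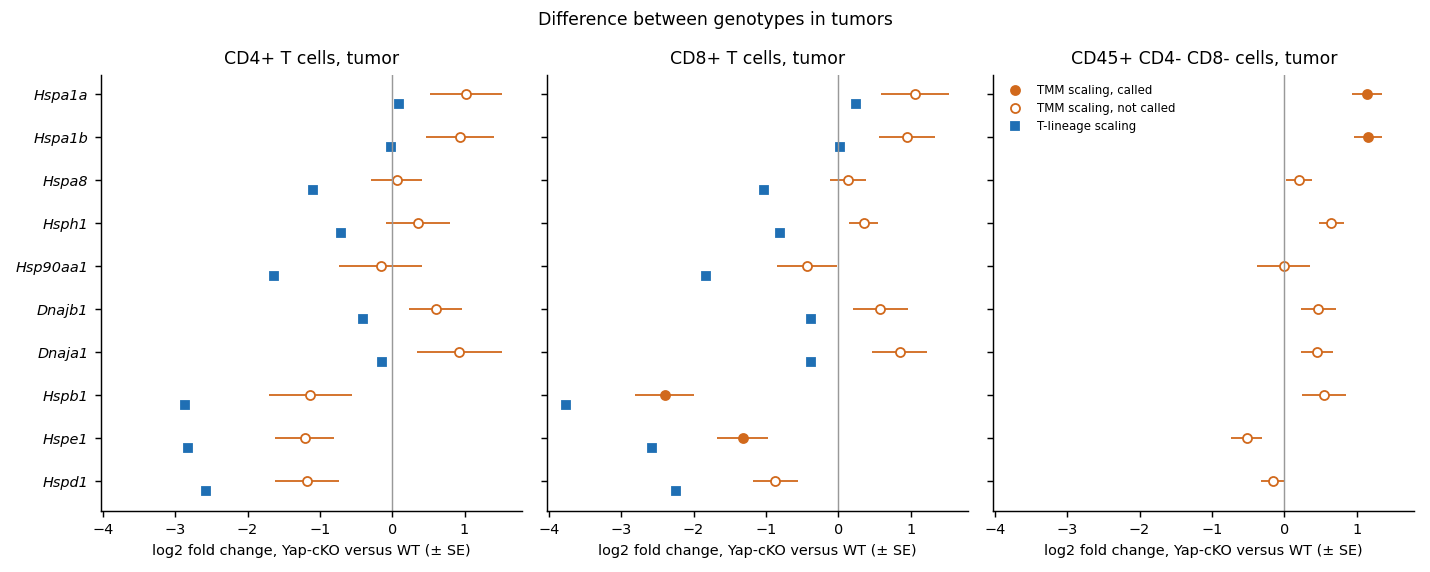
Log2 fold change between Yap-cKO and WT tumors of the 10 genes in the 3 sorted populations. Orange circles are TMM-scaled values (± SE, n = 4 against 4), filled where called, and blue squares are values scaled on 15 T-lineage genes. Hspa1a and Hspa1b are called in CD45+ cells only. In T cells the T-lineage values lie left of the TMM values, a shift that this scaling gives all genes alike.

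In the node no member was called between genotypes. Of all tested genes 0.0462% were called in CD4+ T cells, 0.0158% in CD8+ T cells and 0.0596% in CD45+ cells. The members' log2 fold changes ranged from -0.35 to 1.03 in CD4+ T cells, -0.78 to 0.69 in CD8+ T cells and 0.11 to 0.99 in CD45+ cells, where Hspb1 was too low to test. At an unadjusted p under 0.05 there was 1 member, Hsp90aa1 in CD4+ T cells (434, 193, 462 and 650 CPM in WT against 456, 699, 843 and 1558 CPM in Yap-cKO mice), and DESeq2 called 0 in each population.

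The tumor versus node differences of the 2 genotypes were then compared by an interaction of tissue and genotype, and no member was called. All genes gave 1.36% calls in CD4+ T cells, 0.422% in CD8+ T cells and 0% in CD45+ cells. The lowest adjusted p among the members was 0.333, 0.319 and 0.396, 1 member in each population had an unadjusted p under 0.05, and DESeq2 called 0. The largest estimate was that of Hspb1 in CD45+ cells, 2.07 ± 0.737. Differences in calls between genotypes described above are therefore not shown to be differences in effect.

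Between CD8+ and CD4+ T cells of WT mice, 0 members were called in tumors (background 0.119%) and 0 in nodes (background 3.76%), with 2 and 0 at an unadjusted p under 0.05 and 0 by DESeq2 in both. In tumors, however, Hspa1a had a log2 fold change of -1.25 ± 0.544 in CD8+ relative to CD4+ TILs, and same-numbered libraries deviated together. With the library number as a block Hspa1a was called (-1.31, adjusted p = 0.0149), being lower in CD8+ than in CD4+ TILs in 4 of 4 numbers, whereas Hspa1b was at -1.05 (adjusted p = 0.0772). The block raised the calls over all genes from 17 to 103 of 14266, so the gain is not particular to Hspa1a.

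Between CD45+ cells and WT T cells the order depended on tissue. The CD4+ and CD8+ libraries entered as 8 T cell libraries, which may come from as few as 4 mice, so that p-values may be too small. In WT tumors 3 members differed (background 34.3%): Hspa1a was higher in CD45+ cells by 2.20 ± 0.399 (adjusted p = 0.000527) and Hspa1b by 1.73 ± 0.338, with no overlap, and Hspd1 was lower by 1.11 (SE 0.321, adjusted p = 0.0119), the last being lost without CD45+ tumor library 2 or TIL library 1 of either T cell population. In WT nodes 5 were lower in CD45+ cells (background 25.2%), namely Hspa1b (-1.99, adjusted p = 0.0488), Dnajb1 (-1.97), Dnaja1 (-1.66), Hspe1 (-1.30) and Hspd1 (-1.03, adjusted p = 0.034). Dnajb1 and Dnaja1 were called whichever library was left out. The count fell to 2 without WT CD45+ node library 3 or 4 or WT CD4+ node library 1 or 3, and to 3 without WT CD8+ node library 1.

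The spread within the WT node T cells had the same order of library numbers in both populations for 6 of the 10 members. Among these, Hspa1a and Hspa1b are 1 measurement. The other T cell pairs agreed less often: only Hsph1 kept its order in both populations of Yap-cKO nodes, and only Dnajb1 in WT TILs. In Yap-cKO TILs Hspa1b, Hsp90aa1, Dnajb1 and Dnaja1 did. The share of all genes with such an order was not counted, so the agreement in WT nodes is not shown to be particular to the members. Over all genes that passed the count filter, same-numbered libraries of these populations deviated together, with correlations of 0.554, 0.685, 0.433 and 0.835. Hspa1a in WT CD4+ node cells was at 1018, 366, 1224 and 92.6 CPM in libraries 1 to 4, and in CD8+ node cells at 923, 369, 1663 and 69.6 CPM, so that both ran from library 3 through 1 and 2 to 4. Hspa1b, Hspa8, Dnajb1 and Hspe1 had that same order in both T cell populations. Hsph1 ran from library 1 through 3 and 4 to 2 in both, while Hsp90aa1, highest in library 4 in both, and Dnaja1, Hspb1 and Hspd1 had different orders in CD4+ and CD8+ cells. In the CD45+ node cells the order was another (551, 52.4, 252 and 189 CPM for Hspa1a). Immediate early genes, the other class known to respond to dissociation, summed over 34 genes to 16867 to 28934 CPM in WT CD4+ and 16291 to 36792 CPM in WT CD8+ node cells, and library 3 was highest and library 4 lowest in both. In Yap-cKO nodes Hspa1a was at 1454, 334, 762 and 464 CPM in CD4+ and 1140, 294, 585 and 1041 CPM in CD8+ T cells, with library 1 highest and library 2 lowest in both. By the study's methods both T cell types were taken from each tumor, but the labels do not say whether libraries with the same number came from the same mouse.

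**Figure D4:**
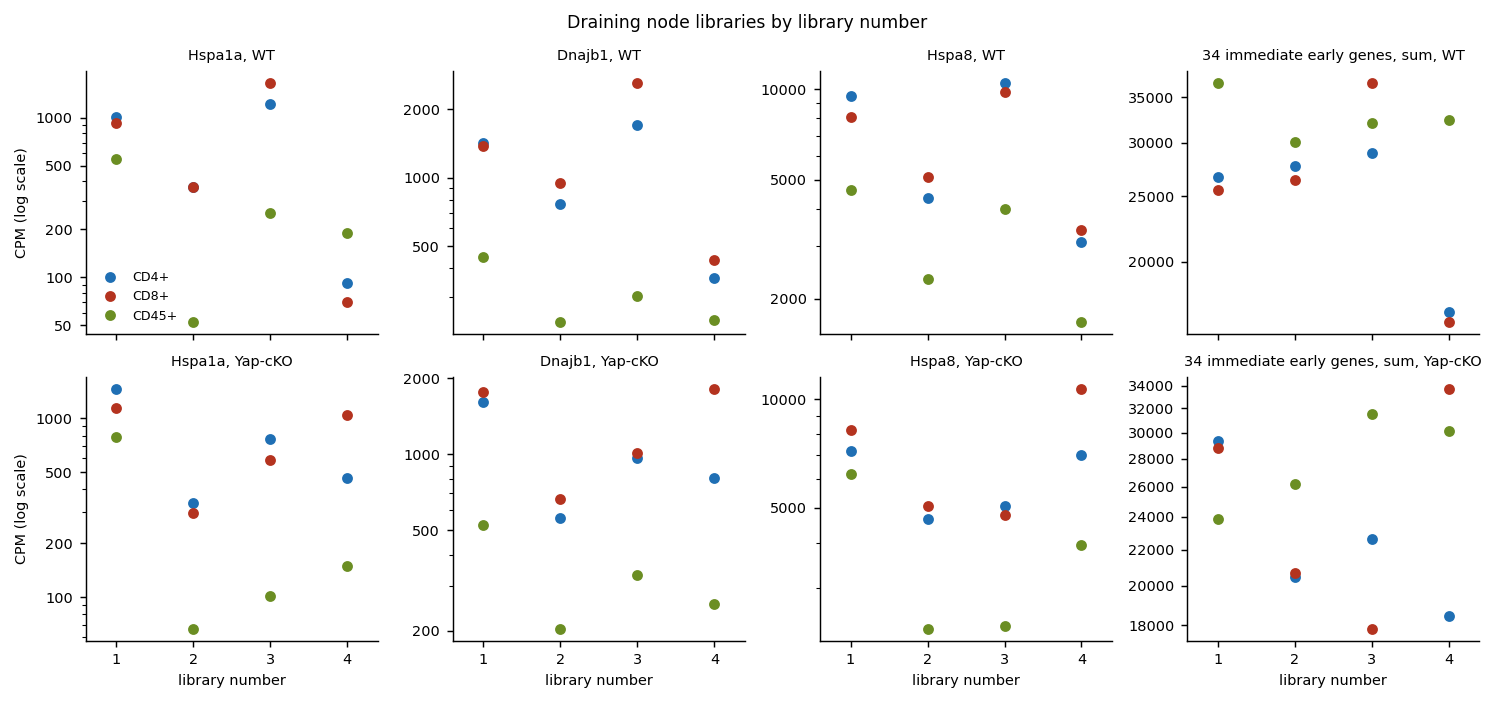
CPM (log scale) of Hspa1a, Dnajb1, Hspa8 and the sum of 34 immediate early genes in the node libraries, by library number, for WT (top) and Yap-cKO mice (bottom), each point being 1 library. In WT mice the CD4+ and CD8+ points run together, highest in library 3 and lowest in library 4.

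The immediate early genes followed the members' directions between tissues only in part. Of 34 tested, 3 rose and 16 fell in WT CD4+ and 3 rose and 24 fell in WT CD8+ T cells from node to tumor, with medians of -0.97 and -1.64. Of all genes, 22.9% rose and 14.4% fell in the former and 22.5% and 15.2% in the latter. In WT CD45+ cells 8 rose and 13 fell (median -0.23, all genes 21.9% and 18%). In Yap-cKO CD45+ cells 17 rose and 8 fell (median 1.1, all genes 21.8% and 18.5%). In Yap-cKO T cells 3 rose and 2 fell in the CD4+ population (all genes 12.4% and 6.07%). In the CD8+ population 3 rose and 8 fell (all genes 10.9% and 5%). Hmox1 (heme oxygenase 1), Ier3 and Atf3 rose in all 6 comparisons, in WT CD8+ T cells by 5.85 ± 0.463, 3.65 ± 0.541 and 2.02 ± 0.446. The genes that fell most were Egr3, Nr4a3 and Nr4a2 in WT CD4+ T cells (-2.54, -2.38 and -2.33), which are induced by T cell receptor signaling, and Fosl2, Ppp1r15a and Junb in WT CD8+ T cells (-2.95, -2.67 and -2.51). In WT tumors 21 of 34 were higher in CD45+ than in T cells, led by Atf3 (3.86 ± 0.227), Egr2 (3.44) and Zfp36 (3.10), as inducible HSP70 was. Of all genes tested there, 2352 of 14942 were called higher. Between genotypes, 2 rose in CD4+ TILs (Gadd45b 1.92 and Nfkbia 1.4) and 2 in CD8+ TILs (Nr4a2 1.9 and Egr2 1.4), and 0 were called in CD45+ tumor cells, whose values are given with HSP70 above. Of all genes 8.02%, 12.2% and 0.991% were called in these comparisons, in either direction. The part of cell isolation in the chaperone results was not tested, since the design holds no library of unsorted or undigested tissue.

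The regulators and relatives of the members were read from lists chosen by function. Among the heat shock factors, Hsf1 fell in CD45+ tumor cells, by 1.42 (SE 0.219, adjusted p = 0.000482) in WT and 1.01 (SE 0.171, adjusted p = 0.000493) in Yap-cKO mice, while Hspa1a rose there. In T cells its log2 fold changes were -0.52, -0.94, -0.44 and -0.47 and were not called. Hsf4, a factor best known from the lens, was called higher in tumors in all 4 T cell comparisons.

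Of the other cytosolic HSP70, HSP40, HSP90 and small heat shock protein genes, 5 of 25 rose and 4 fell in WT CD4+ T cells, 6 rose and 3 fell in WT CD8+ T cells, and 5 rose and 3 fell in WT CD45+ cells. These counts stand beside similar shares of all genes in the same comparisons (22.9% higher and 14.4% lower, 22.5% and 15.2%, 21.9% and 18%). The rises in T cells were led by the small heat shock proteins Cryab (alpha-B-crystallin), Hspb2 and Hspb8. Cryab was at 103, 70.2, 43.0 and 41.6 CPM in WT CD4+ TILs, 0.731, 5.14, 21.9 and 5.73 CPM in Yap-cKO CD4+ TILs, and at or below the level of 3 counts in all WT T cell node libraries. Hspb8 was lower in Yap-cKO than in WT TILs, as Hspb1 was in CD8+ TILs: it was at 1.41 to 5.29 CPM in WT and 0 to 0.609 CPM in Yap-cKO CD4+ TILs (adjusted p = 0.0213), and at 0 in all T cell node libraries. Its part from tumor cell RNA was not tested. Dnajb4, an HSP40 close to Dnajb1, fell in T cells of both genotypes, from -2.63 in Yap-cKO CD4+ to -1.50 in Yap-cKO CD8+ T cells.

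Among 27 cochaperones, no more than 3 rose and 2 fell in any of the 6 tissue comparisons. Of all genes, 10.9% to 22.9% were called higher and 5% to 18.5% lower in these comparisons. Bag3, an HSF1 target that hands HSP70 clients to autophagy, rose in CD45+ tumor cells alongside Hspa1a, by 2.34 ± 0.354 (adjusted p = 0.000434) in WT and 3.53 ± 0.336 (adjusted p = 7.03e-06) in Yap-cKO mice. It was at 21.8 to 32.0 CPM in WT and 40.6 to 85.6 CPM in Yap-cKO tumors, and at 2.44 to 7.74 CPM in the nodes of both. Of the 13 tested genes of the cytosolic chaperonin TRiC and prefoldin, Pfdn1 rose in every T cell comparison (1.31, 1.63, 1.11 and 1.14) and none fell in any tissue comparison. The other mitochondrial chaperones and proteases gave 2 calls of 15 in WT CD4+ T cells (Dnajc19 1.03 and Phb2 1.0), where 37.3% of all genes were called.

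The chaperones of the endoplasmic reticulum (ER), which answer to the unfolded protein response and not to HSF1, rose in shares not far from those of all genes, Yap-cKO CD45+ cells apart. Of 25 tested, 8 rose and 1 fell in WT CD4+, 6 rose and 1 fell in WT CD8+ and 5 rose and 1 fell in WT CD45+ cells, where 22.9%, 22.5% and 21.9% of all genes were called higher. In Yap-cKO mice 2 rose and 1 fell in CD4+ and in CD8+ T cells (12.4% and 10.9% of all genes higher). In Yap-cKO CD45+ cells 14 rose and 1 fell (21.8% of all genes higher), with a median log2 fold change of 1.12. Sdf2l1 (2.75 ± 0.216), P4hb (2.19 ± 0.196) and Pdia3 (1.59 ± 0.241) led there. Dnajb9, an ER J-domain protein, fell in T cells by 2.69, 2.60, 2.06 and 1.70, and Atf6, a sensor of the response, rose in them (1.65, 2.19, 1.43 and 1.83).

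The members formed at least 2 patterns over the 48 libraries. On log2 CPM, Pearson's r was 0.96 between Hspa1a and Hspa1b, which share reads, and 0.89 between Hspa8 and Dnajb1, whereas Hspa1a and Hspd1 gave -0.13. These are descriptions over libraries that share tissue, sort and sequencing depth. Of 13193 genes, the non-members most like Hspa1a were Por (0.80), Slfn2 (0.78), H13 (0.74), Glul (0.74) and Myd88 (0.74), all outside the chaperone lists. Those most like Hspd1 were Paics (0.90), Tcp1 (0.89), Impad1 (0.88), Serbp1 (0.87) and Ncbp2 (0.87), of which Tcp1 is a subunit of the cytosolic chaperonin.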

How the data were processed

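CD45+ CD4- CD8- cells, CD4+ T cells and CD8+ T cells sorted live from tumors and draining nodes were profiled by SMART-Seq paired-end RNA sequencing. Per the labels and the study's methods, the authors ran FastQC and Trimmomatic and quantified transcripts with Salmon 0.9.1 against mm10, giving deposited estimated counts, TPM values and effective lengths per transcript. Of 112092 transcripts, 111787 were matched to GENCODE M21; unmatched transcripts held 0.0488% to 0.1799% of the counts. Counts were summed per gene and rounded, and CPM was computed on matched counts with TMM scaling factors over all libraries.

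Each comparison was fitted with edgeR 4.0.16 (R 4.3.3; TMM, quasi-likelihood test) on its own libraries, after dropping genes that did not reach 10 counts in 4 or more libraries. The standard error of a log2 fold change is its absolute value divided by the square root of F. The members, lists and tests were chosen with earlier results of these data known, and the interaction of tissue and population was added after values had been seen. Named genes were all 10 members, Hsf1, Hsp90ab1 and, per list, comparison and direction, up to 3 called genes with the largest change. The 5 genes most like Hspa1a and Hspd1 were ranked by Pearson's r on log2(CPM + 0.5) over 48 libraries.

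DESeq2 1.42.0, no count filter, adjusted p alone, the summed HSP70 pair, average transcript length offsets, a replicate block, T-lineage scaling, a Y-linked covariate and leaving out each library were tried. The scripts were tested on simulated counts. No 2 libraries of a group agreed within sampling noise in 72 pairs. Beyond the group and number, the labels do not tie libraries to mice, so p-values measure the spread between these libraries. Same-numbered libraries deviated together (every correlation over 0.1) between WT CD4+ and CD8+ T cells in tumors (lowest 0.116) and nodes (lowest 0.433), between Yap-cKO CD4+ and CD8+ T cells in tumors (lowest 0.162) and between WT T and CD45+ cells in tumors (lowest 0.149), and not between genotypes or tissues. Intervals from counts cover counting error only.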

Additional observations from a re-analysis of the deposited data

Results flagged for a closer look

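Among the 120 values of the 10 genes in the 12 groups of 4 libraries, 13 had 1 library farther from the others than Dixon's limit for 4 samples. The limit is set to flag about 1 in 20 groups of independent, normally distributed values. CPM were not log-transformed here and the members share libraries, so 13 is not shown to be more than chance gives. Of the 13, 7 lay in Yap-cKO libraries numbered 1. They were Hspa1a at 785, Hspa1b at 1352 and Dnaja1 at 1057 CPM in CD45+ node cells, Hsph1 at 134 and Dnajb1 at 273 CPM in CD45+ tumor cells, and Hspa8 at 2943 and Dnaja1 at 923 CPM in CD8+ TILs. The other Yap-cKO values were Hspa1b at 1318 CPM in CD4+ TIL library 4, Hspb1 at 50.1 CPM in CD45+ tumor library 4 and Hspd1 at 385 CPM in CD4+ node library 4. In WT mice they were Hsp90aa1 at 1055 CPM in CD8+ TIL library 1 and at 391 CPM in CD45+ node library 2, and Dnajb1 at 164 CPM in CD45+ tumor library 3. Every one was the highest of its group.

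The difference between tumor and node itself differed between CD45+ cells and T cells for 6 members, pooling those called in any edgeR interaction test. Hspa1a and Hspa1b, which share reads, are both counted. All genes gave 17.2% and 15.3% calls against WT CD4+ and CD8+ T cells, and 17.5% and 18% in Yap-cKO mice. These tests were added after the values had been seen, and the calls lost when a library was left out are given above. In WT mice the difference of differences (CD45+ minus T cells, log2) was 2.82 for Hspa1a, 2.93 for Hspa1b and 1.82 for Dnaja1 against CD4+ T cells, and 4.25 for Hspa1a, 4.27 for Hspa1b and 2.01 for Dnajb1 against CD8+ T cells. In Yap-cKO mice it was 3.17 for Hspa1a, 3.09 for Hspa1b and 3.43 for Hspb1 against CD4+ T cells. Against Yap-cKO CD8+ T cells it was 4.4 for Hspa1a, 4.34 for Hspa1b, 1.47 for Hspa8, 1.87 for Dnajb1 and 4.84 for Hspb1.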

How the results depend on the processing

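Several Yap-cKO versus WT counts in tumors moved with the setting. In CD4+ TILs 1 member was called by DESeq2, 1 with no count filter and 3 with T-lineage scaling, where 0 were called. In CD8+ TILs T-lineage scaling called 4, and the Y-linked covariate 0, where 2 were called. In CD45+ tumor cells the summed HSP70 pair gave 1 call, being 1 gene, and the Y-linked covariate 0, where 2 were called. T-lineage scaling gave 5 calls in place of 8 between WT CD8+ TILs and node cells, with Dnaja1 turning to 0.09, and 1 (CD4+) and 2 (CD8+) in place of 0 for tissue by genotype. Adjusted p alone gave 5 in place of 3 for CD45+ against T cells in WT tumors, and DESeq2 and average transcript length offsets gave 5 each in place of 3 for the interaction against WT CD8+ T cells. Except for the summed pair, the cause was not tested.

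With the library number as a replicate block, CD8+ and CD45+ Yap-cKO versus WT tumor comparisons had 0 calls each in place of 2, although same-numbered libraries did not deviate together between genotypes (lowest correlation -0.379 and -0.396). All genes went from 1719 and 135 calls to 1 each, while the log2 fold changes were -2.30 for Hspb1, -1.24 for Hspe1, 1.13 for Hspa1a and 1.16 for Hspa1b. CD8+ versus CD4+ TILs of WT mice, whose numbers pair, had 1 in place of 0, while all genes had 103 in place of 17. The block moved no other count of members called by more than 1.5 times.

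Leaving out 1 library gave 0 to 3 calls for Yap-cKO versus WT CD4+ TILs (3 without Yap-cKO library 3), 0 to 5 for CD8+ TILs (5 without WT library 3, 0 without Yap-cKO library 2, 1 without each of the others) and 0 to 2 for CD45+ tumor cells (2 without Yap-cKO library 3). Tumor versus node gave 2 to 6 in WT CD45+ cells (2 without node library 3 or 4) and 4 to 6 in Yap-cKO CD8+ T cells (4 without tumor library 2). CD45+ against T cells in WT nodes gave 2 to 7. The interactions gave 2 to 5 against WT CD4+ (5 without WT CD4+ node library 2 or 4), 0 to 5 against Yap-cKO CD4+ (0 without CD4+ node library 1, 5 without CD45+ node library 1) and 3 to 7 against Yap-cKO CD8+ T cells (3 without CD45+ tumor library 1 or CD8+ node library 4). In nodes, Yap-cKO versus WT stayed at 0 under every setting run. At 3 to 75 counts, Hspb1 in node libraries is limited by counting error.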
